A study of Homo sapiens with 3 samples.

Results

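The regions described here were the peaks of an eCLIP experiment that lay at the downstream ends of protein-coding genes. eCLIP crosslinks protein to RNA with UV light, precipitates the protein and sequences the RNA fragments that come with it. A peak was a member when its centre lay in the span of exactly 1 protein-coding gene of 5000 bases or more and of no other gene, within 1000 bases of the end that is downstream on the strand of the peak, and not within 1000 bases of the other end. Of the 21031 peaks in the list, 20907 lay on chromosomes 1 to 22 and X, and 15841 of these lay in 1 such coding gene and no other gene; these are called eligible below. Of the eligible peaks 2080 were members (13.1%, Wilson interval 12.6 to 13.7%), 3790 lay at upstream ends by the mirror-image rule and 9971 lay in the interior. Together the members covered 0.850 Mb, and 1067 were plus-strand and 1013 minus-strand peaks.

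The cells were LS174T, an established human colon adenocarcinoma line, and every library came from cells transfected with HA-tagged mouse Pxr 24 h before crosslinking at 254 nm and 400 mJ/cm2. The labels give 1 input library and 2 replicates of the PXR immunoprecipitate. Antibodies to PXR, to HA and a control IgG are named, but not which of them served which library. No library is labelled as coming from cells without the construct, and the human gene for the receptor, NR1I2, held no downstream-end peak. The data are 1 peak list named for the immunoprecipitate; the labels leave unstated whether it rests on both replicates or on 1. For that reason replicate spread is unknown for every value below, and nothing was tested. Intervals cover counting error only. As a check of the labelled tissue, 20 of 23 goblet and colon epithelial markers of 5000 bases or more held an eligible peak, against 3 of 10 neuronal markers, 1 of 11 fibroblast and endothelial markers, 0 of 11 hepatocyte markers and 0 of 8 blood and immune markers. Among all coding genes of that length 6571 of 16814 held one.

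A coding gene ends, in its RNA, with the untranslated region that follows the stop codon and with the site where the transcript is cut and given its poly(A) tail. The cut is directed by a hexamer, most often AATAAA in the DNA, that lies a short way before it, and the region upstream of the tail is where many RNA-binding proteins and microRNAs act on stability and translation. PXR belongs to the nuclear receptors and is best known as a DNA-binding sensor of drugs and bile acids, with CYP3A4 and ABCB1 as classic target genes.

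The sequence of a gene end was available only where the window of 250 bases before and 50 after the start of another gene, in the RefSeq promoter table of GRCh38.p14, happened to cover it. This was so for the last 50 bases of 13 genes with a same-strand downstream-end peak, and 5 of these ends are shown because they place the peak against the signal that marks the end of the RNA. Each is 30 bases on the strand of the gene, with the hexamer in capitals.
ATP6V0C: agctgtgtccAATAAAgttcttggatgtga
NRBP1: gctgtAATAAAagtctactttttgctaaaa
NABP2: ctctccttcctAATAAAtgttaccactcta
CAMTA2: tacgaattgccATTAAAcatcgctgcacca
PMM2: agagtagcacATTAAAgtgattttattgtt

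The bases shown lie at chr16:2520189-2520218 for ATP6V0C, chr2:27442230-27442259 for NRBP1, chr12:56229825-56229854 for NABP2 and chr16:8849296-8849325 for PMM2, all on the plus strand, and at chr17:4967997-4968026 on the minus strand for CAMTA2. The letters AATAAA, searched on the gene strand alone, occurred in the last 50 bases of 7 of the 13 covered member genes (53.8%, Wilson interval 29.1 to 76.8%), and ATTAAA without AATAAA in 2 more. Among all 73 coding genes whose end was covered, AATAAA occurred in 31 (42.5%), and it occurred in the first 50 bases of 2.37% of all 35116 promoter windows. A match of letters describes the window and is not evidence that the signal is used.

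Members with a hexamer differed in whether the peak reached it. The peak of ATP6V0C, which codes for a proton pump subunit, ran from 2519599 to 2520347 on chromosome 16, over the hexamer and past the end, with 103 reads at its summit (exact Poisson interval 84.1 to 125) and a fold of 8.37. The peak of NRBP1, for a pseudokinase, likewise covered its hexamer, with 27 reads at a fold of 5.60. At NABP2, for a single-stranded DNA-binding protein, the peak ended at 56229638, before the hexamer, and at PMM2, for phosphomannomutase, the centre lay 829 bases from the end with 40 reads. ATP6V0C and PMM2 each had a further, shallower downstream-end peak, and the values here are of the peak with the higher fold. In all, the whole hexamer lay inside that peak in 2 of the 9 genes that had one and outside it, or only partly inside, in 7. From the end of the hexamer to the annotated end of the gene the median was 14 bases, with quartiles of 13 and 30.

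Members were most frequent 101 to 400 bases before the gene end. The 100-base intervals at 101 to 200, 201 to 300 and 301 to 400 bases held 311, 303 and 284 members, while the last 100 bases held 128 and the interval from 901 to 1000 bases held 168. The median distance of a centre from the end was 407 bases, with quartiles of 224 and 665. Beyond the limit the counts fell further, with 1114 eligible peaks from 1001 to 2000 bases, 673 in the next 1000 bases and 373 from 4001 to 5000. At upstream ends the same profile was higher and narrower, with 941 peaks at 101 to 200 bases and 1223 at 201 to 300.

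**Figure D1:**
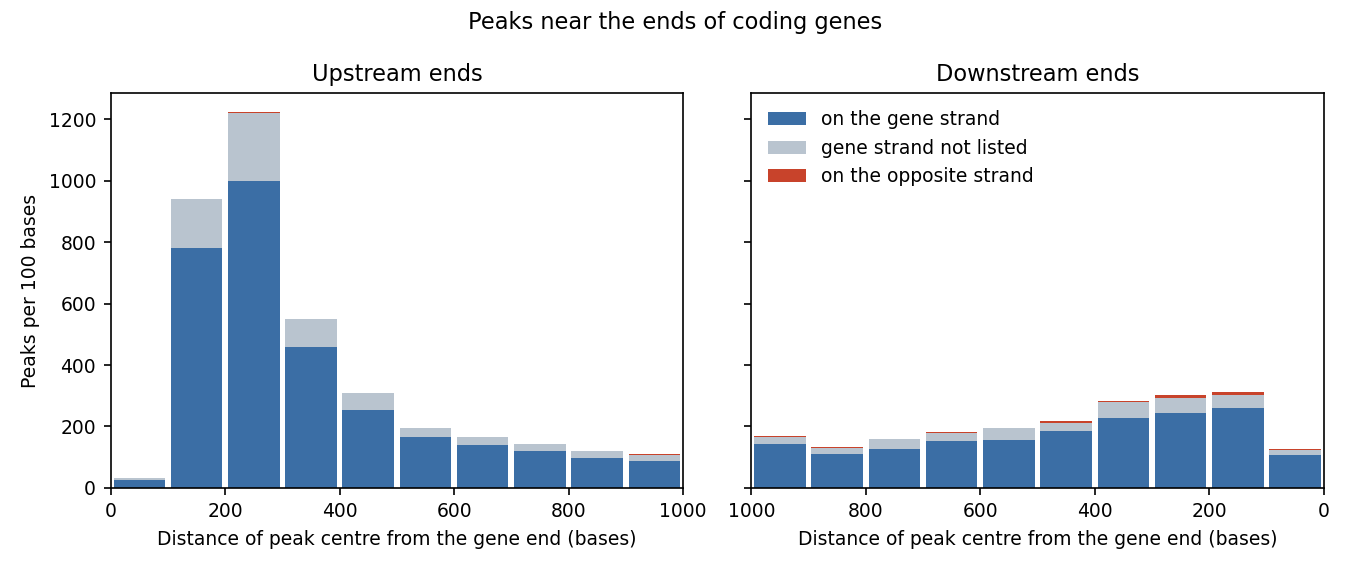
Number of eligible peaks (y axis) in each 100 bases of distance between peak centre and gene end (x axis), at upstream ends (left) and downstream ends (right, with the end of the gene at the right edge), divided by the strand of the peak against the strand of the gene. Downstream-end counts are highest from 101 to 400 bases before the end, at 284 to 311 peaks per interval, and the upstream profile peaks at 1223.

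Few members crossed the annotated end by much. The interval of 483 members (23.2%) reached past it, by a median of 49 bases, and the rule on the centre limits how far this can go. Past the end itself, 78 peaks had their centre in no gene and within 1000 bases beyond the end of such a coding gene, of which 12 lay on the strand of that gene, 50 on the other strand and 16 beside a gene whose strand was not listed. Inside the end, within 1000 bases, 1709 peaks lay on the strand of the gene. The counts on the 2 sides are not like for like, since bases past an end that belong to another gene were left out. How many such bases there are was not counted.

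The rule takes the downstream end from the strand of the peak, so the strand of the gene was checked afterwards. The promoter table gave a strand for the genes of 1751 members (84.2%), and 1709 of them lay on the strand of their gene (97.6%, Wilson interval 96.8 to 98.2%). These are downstream ends of the gene itself. The other 42 (2.40%, 1.78 to 3.23%) lay on the opposite strand, so that for the gene they sit at its start and the label does not hold. Among all eligible peaks of known gene strand 1.67% lay on the opposite strand, which were 9 of 3138 at upstream ends (0.287%) and 169 of 8252 in the interior (2.05%). The 329 members of unlisted gene strand are given with the rest, and for these the end is downstream only by the strand of the peak.

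Members were wide and had modest folds. Their median width was 331 bases (order-statistic interval 319 to 340), with quartiles of 232 and 495, against 294 bases at upstream ends and 246 in the interior. Of the members 508 were wider than 500 bases (24.4%, Wilson interval 22.6 to 26.3%), against a background of 13.2% of all eligible peaks, 14.7% at upstream ends and 10.3% in the interior. Single-read width, meaning the narrowest width of 200 bases or at most 2 bases more, was seen in 258 members (12.4%). It was seen in 18.1% of all eligible peaks, 11.6% at upstream ends and 21.8% in the interior.

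The deposited fold sets the summit against a background, and the sources do not say whether the input library served as that background. It is read here as summit reads over background reads, with 1 added to both, since this fits the deposited fold and p of all 2080 members. In 22 members the fitted background was a common level of the whole strand, and in the others it was read as a mean over the 10 kb around the summit. The 10 kb reading does not hold for every such member, since the lowest fitted background was 11.09 reads per 10 kb, which is not a whole count. Over all eligible peaks, summit reads were at most 100% of the fitted background per 10 kb. The background is therefore read as reads of the immunoprecipitate itself, with those of the summit included. On that reading the fold is a rise over the surroundings and not over input. These readings are inferred from the values, and every count of reads or share of the 10 kb rests on them. The median fold was 5.64 in members (5.56 to 5.72), 7.67 at upstream ends (7.52 to 7.78) and 5.48 in the interior (5.43 to 5.52). The difference of members from the interior was 0.160, and combining the intervals of both medians gives 0.0383 to 0.286. With 2000 bases in place of 1000 as the limit it was -0.0595, with an interval of -0.163 to 0.0576 that includes 0. A fold of 10 or more was reached by 140 members (6.73%, 5.73 to 7.89%), against 10.6% of all eligible peaks, 27.4% at upstream ends and 5.06% in the interior. For a peak so near a gene end, a large part of the 10 kb lies past the gene; the part of this in the folds at either end was not tested.

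Read depth differed little between the places. Summit reads, worked back from the deposited fold and p, had a median of 22 in members (21 to 23), 20 at upstream ends and 22 in the interior. Of the members 75 held 100 reads or more (3.61%), against 3.29% of all eligible peaks, and 151 held under 10 (7.26%), against 8.27%. The background differed more, with a median of 148 reads per 10 kb around members, 76.0 around upstream-end peaks and 150 in the interior.

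**Figure D2:**
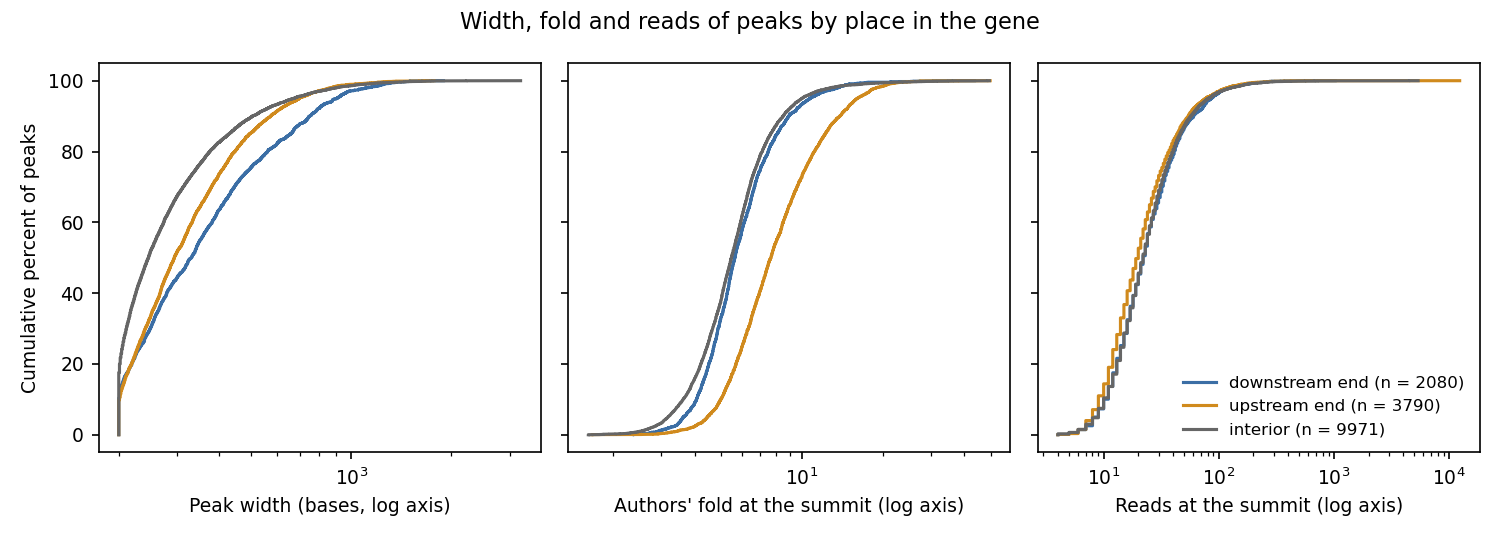
Cumulative percent of peaks (y axis) against width in bases, the authors' fold and reads at the summit (x axes, log scales) for downstream-end, upstream-end and interior peaks. The downstream-end curve lies furthest right for width, with a median of 331 bases, close to the interior curve for fold, at 5.64 against 5.48, and the curves for reads nearly coincide.

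Along the last 1000 bases the fold was somewhat higher near the end and the depth was level. The median fold was 6.12 in the last 100 bases, 6.02 from 101 to 200, 5.49 from 401 to 500 and 5.22 from 901 to 1000, with a median of 21.0 to 24.0 reads in each 100-base interval. It was 5.14 from 1001 to 2000 bases and 4.79 from 2001 to 3000. Median width rose from 242 bases in the last 100 bases to 392 bases from 301 to 400, and a wide peak cannot have its centre close to the end without running past it.

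The members lay in 1874 genes, which were 11.1% of the 16814 coding genes of 5000 bases or more (Wilson interval 10.7 to 11.6%) and 28.5% of the 6571 with any eligible peak. In 1671 genes there was 1 member, in 200 there were 2 and in 3 there were 3. In 428 genes the downstream-end peaks were the only eligible peaks. In the other 1446 genes, the deepest downstream-end peak held more reads than every eligible peak elsewhere in the gene in 506 (35.0%). The highest fold among the downstream-end peaks exceeded every fold elsewhere in the gene in 448 (31.0%). The 1874 genes together held 6054 eligible peaks, of which 2080 were members. The share to be had from the number of peaks alone was not worked out, so neither share is read as a tendency of the end.

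Both ends held a peak in 876 genes, which were 46.7% of the genes with a downstream-end peak and 24.2% of the 3620 with an upstream-end peak. Among the 6571 genes with an eligible peak, 3620 had an upstream-end peak and 28.5% a downstream-end peak, and neither overlap was above these shares. That set includes 428 genes that entered by downstream-end peaks alone, which lowers the overlap in it. Of all 16814 coding genes of 5000 bases or more, 3620 had an upstream-end peak and 11.1% a downstream-end peak, and both overlaps were above these shares. The direction thus depends on the genes counted, and expression was not matched. Within the 876 genes with both, the upstream peak had the higher fold in 644 and the downstream peak in 231, with medians of 8.30 and 5.85. The order of depth was mixed, with more reads downstream in 392 genes and upstream in 460, at medians of 25 and 26 reads. The downstream peak was the wider in 536 of the 876 genes, at a median of 361 bases against 294.

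Members were taken more often from short genes. Their genes had a median length of 22697 bases, against 38654 for all genes with an eligible peak. In genes of 5000 to 10000 bases 28.2% of eligible peaks were members (25.9 to 30.7%), in those of 20000 to 50000 bases 13.8% (12.9 to 14.8%), and in those of 100000 bases or more 4.86% (4.26 to 5.54%). The last 1000 bases made up 13.5%, 3.07% and 0.390% of the bases of these genes. By gene, 13.9% of the shortest class, 15.4% of those from 10000 to 20000 bases and 5.76% of the longest held a downstream-end peak. Across chromosomes the share of eligible peaks that were members ran from 5.67% on chromosome 13 (17 of 300) to 20.4% on chromosome 19 (263 of 1291).

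The deepest members lay in KRT8 and EEF2. The peak of KRT8, a keratin of simple epithelia, on chromosome 12 from 52897186 to 52897591, held 1027 reads (965 to 1092) at a fold of 14.8, and another KRT8 peak away from this end held 1147. The peak of EEF2, the factor that moves the ribosome along the RNA, held 730 reads (678 to 785) at a fold of 8.32, more than the 582 of its deepest other peak. Both lay on the strand of the gene, and both summits stood over well-covered surroundings, with 3431 and 4344 reads in the 10 kb. KRT8 has many near-identical pseudogenes, so how its reads were placed is uncertain.

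TNS4, for a tensin of focal adhesions, held 374 reads (337 to 414) at a fold of only 4.23, since its 10 kb held 4387 reads. PIGR, the receptor that carries immunoglobulins across epithelia, held 289 reads (257 to 324) at a fold of 7.58. The EIF5A peak, for a translation factor, held 275 reads (243 to 309) at a fold of 14.4, while the deepest other peak of that gene held 88. HMGA1, for a chromatin protein, held 273 reads (242 to 307) in a peak 1501 bases wide. BSG, for the cell surface protein basigin, held 271 reads, ENO1, for the glycolytic enzyme enolase, 249, and CALR, for the chaperone calreticulin, 246. Among these 7 genes the downstream-end peak was the deepest of the gene in EIF5A, HMGA1, BSG, ENO1 and CALR, and an interior or upstream peak was deeper in TNS4 and PIGR.

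**Figure D3:**
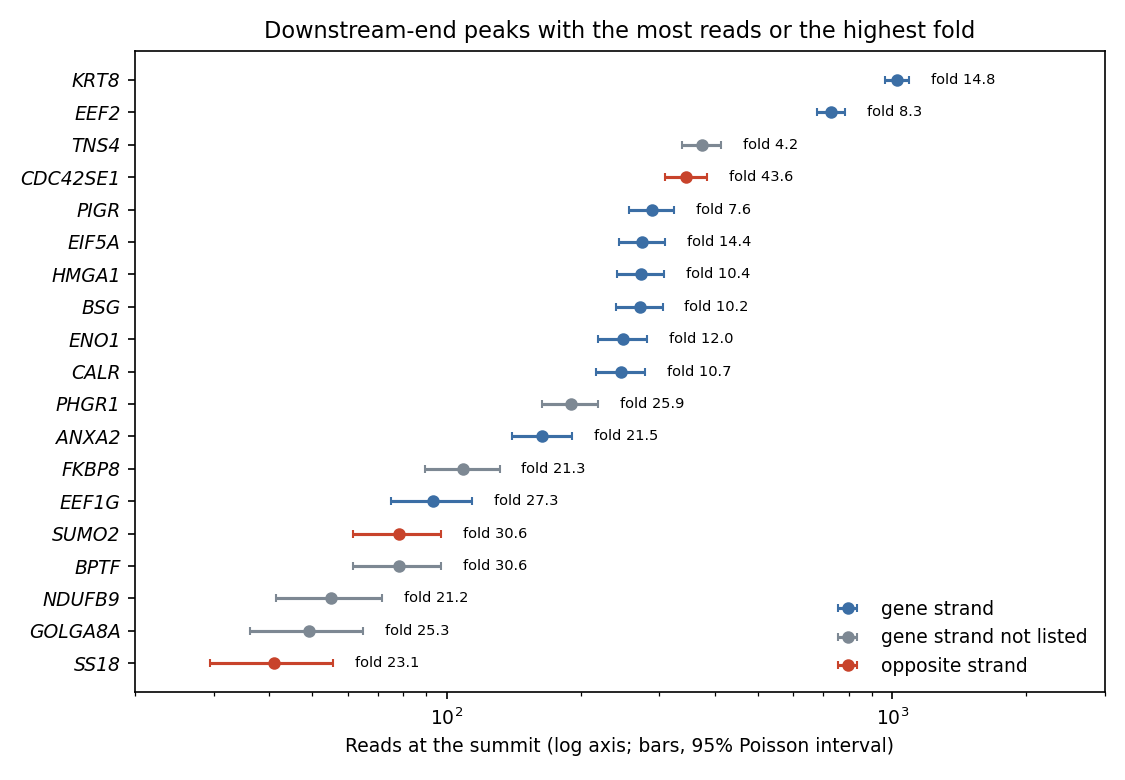
Reads at the summit (x axis, log scale, with 95% Poisson intervals) of the 10 downstream-end peaks with the most reads and the 10 with the highest fold, 19 peaks in all, with the authors' fold written beside each. KRT8 and EEF2 lead by reads at 1027 and 730, while the highest folds, 43.6 and 30.6, include opposite-strand peaks at CDC42SE1 and SUMO2. The intervals treat reads as independent, also in the narrowest peaks.

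The highest folds were of another kind. Only 10 members reached a fold of 20 or more (0.481%), against a background of 0.808% of eligible peaks, and of these 2 lay on the strand of the gene, 3 on the opposite strand and 5 in genes of unlisted strand. The pair on the gene strand were EEF1G, a subunit of the elongation factor that delivers transfer RNA, with 93 reads (75.1 to 114) at a fold of 27.3, and ANXA2, for the membrane-binding annexin A2, with 164 reads (140 to 191) at a fold of 21.5. The EEF1G summit held 76.2% of the reads in its 10 kb and lay at chromosome 11 from 62559538 to 62559822. PHGR1, a gene of the intestinal epithelium, had 190 reads (164 to 219) at a fold of 25.9, FKBP8, for a mitochondrial immunophilin, 109 at 21.3, and NDUFB9, for a subunit of respiratory complex I, 55 at 21.2.

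The remaining members with such folds were narrow. The BPTF peak, in the gene of a chromatin remodeller, was 201 bases wide on the minus strand and held 78 of the 79 reads of its 10 kb. The GOLGA8A peak, in a gene of a repeated golgin family whose copies are hard to tell apart, was 204 bases wide and held all 49 reads of its 10 kb. No same-strand member held all reads of its 10 kb, against 3 of the 42 opposite-strand members and 1 of the 329 of unlisted gene strand.

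Opposite-strand members were narrow and shallow, as opposite-strand peaks in the interior were too, with a median there of 200 bases and 10 reads and single-read width in 129 of 169. Their median width was 200 bases, 27 of the 42 had single-read width (64.3%, Wilson interval 49.2 to 77.0%), and 21 held under 10 reads, where 5.79% of same-strand members did. Their median depth was 9.5 reads (8 to 13) against 22 for same-strand members, at a background of 16.5 reads per 10 kb against 148. In 14 of them the background was the common level that the caller uses for a whole strand and not a local count. The lowest, median and highest folds were 2.74, 6.11 and 43.6.

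The deepest of them was at CDC42SE1, for an effector of the GTPase CDC42, on chromosome 1 from 151058781 to 151058980 on the plus strand, where the gene runs on the minus strand. It held 345 of 347 reads in its 10 kb (310 to 383) in 200 bases, at the highest fold of all members, 43.6. Its centre lay 742 bases inside the start of CDC42SE1, and the plus-strand gene MLLT11 began 775 bases beyond that start. The SUMO2 peak, in the gene of a small ubiquitin-like modifier, held 78 of 79 reads in 200 bases at a fold of 30.6, and the SS18 peak, in the gene of a chromatin remodelling subunit, all 41 reads at 23.1. Without peaks of single-read width, the CDC42SE1 and SUMO2 peaks drop out and SS18, at 205 bases, stays. Whether reads piled in so narrow a peak are copies of few fragments was not tested. A Poisson interval treats them as independent reads and may be too narrow there. The same limit holds for the BPTF and GOLGA8A peaks.

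**Figure D4:**
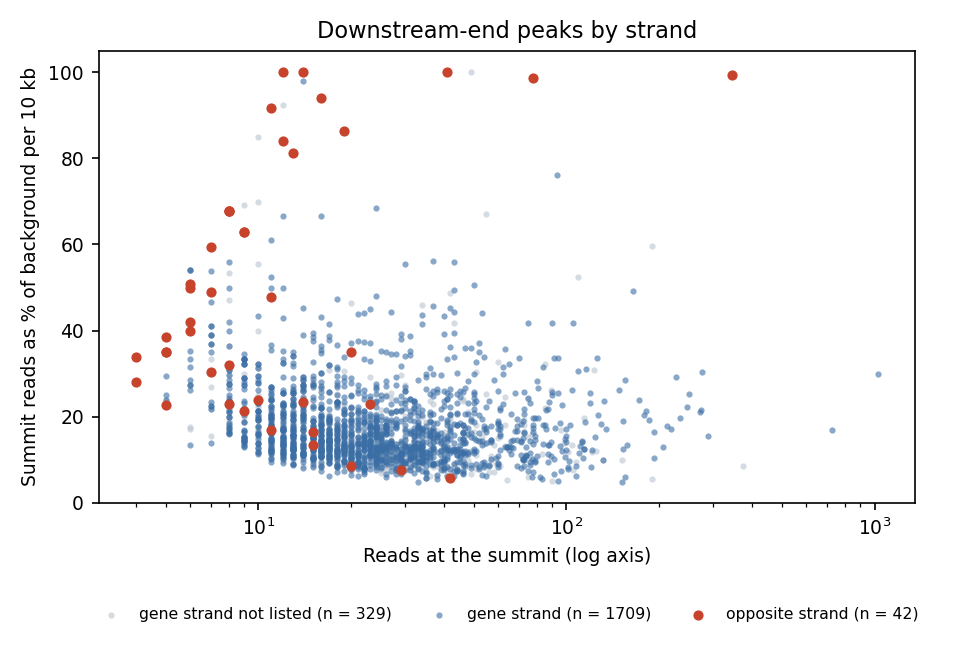
Reads at the summit of each downstream-end peak (x axis, log scale) against those reads as a percent of the background per 10 kb (y axis), by strand of the peak against the gene. Same-strand peaks gather at a median of 15.4%, and opposite-strand peaks at a median of 41.0%, with an upper quartile of 15 reads.

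Some opposite-strand members faced a peak on the gene's own strand. A peak of the other strand lay within 500 bases of the centre of 17 of the 42 (40.5%, Wilson interval 27.0 to 55.5%), against 22 of the 1709 same-strand members (1.29%). These shares are not alike in kind. For an opposite-strand member the facing peak lies on the strand of the gene near its start. Upstream-end peaks were held by 3620 of the 6571 genes with an eligible peak. For a same-strand member the facing peak lies on the opposite strand, as 1.67% of all eligible peaks of known gene strand did. Nothing is drawn from the difference. The clearest pair was at PDXK, for pyridoxal kinase, where the minus-strand peak held 19 reads at a fold of 13.9 and the facing plus-strand peak 78 reads at 10.5. The PDXK peak reached into the promoter, and the 100 bases before to 30 after the gene start, at chr21:43719029-43719158 on the plus strand, are shown with the bases inside the peak in capitals.
PDXK: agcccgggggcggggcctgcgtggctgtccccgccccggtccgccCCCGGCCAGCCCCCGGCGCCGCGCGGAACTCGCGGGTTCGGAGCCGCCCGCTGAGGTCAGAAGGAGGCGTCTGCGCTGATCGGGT

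These 130 bases were 80.0% G or C and held 20 CG steps. The peak thus covered the first bases of the gene and 55 bases before them.

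Genes with several members showed separate peaks along 1 end. ACADVL, for an enzyme of fatty acid oxidation in mitochondria, had 3, centred 825, 517 and 91 bases from the end, with 82, 91 and 218 reads, and the one nearest the end was the deepest of the gene. In HKDC1, for a hexokinase-like protein, the 3 peaks lay 752, 441 and 161 bases from the end and held 26, 17 and 12 reads, and their Poisson intervals overlap. In SH3GL1, for an endophilin, the peaks at 954, 463 and 85 bases held 38, 29 and 25 reads. PTMA, for prothymosin, had peaks of 114 reads at both 993 and 522 bases. CCND1, for cyclin D1, had 131 reads at 768 bases and 75 at 223, and MLEC, for the lectin malectin, had 94 at 805 and 107 at 245, all with folds under 5.

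Gene groups differed in how often a gene with an eligible peak had one at its downstream end, where 28.5% of all such coding genes did. The lists differ in gene length and expression, which were not matched, so nothing is drawn from a share about a list as such. Where a listed gene has several members and 1 value is given, it is that of the highest fold. Colon epithelial markers had a downstream-end peak in 14 of the 20 genes with any eligible peak (70.0%, Wilson interval 48.1 to 85.5%). Besides KRT8 and PIGR these included AGR2, for a chaperone of mucin secretion, with 91 reads at a fold of 14.3, EPCAM, for an epithelial adhesion protein, with 60 at 13.0, and TSPAN8, for a tetraspanin, with 31 at 11.6. The secreted mucin gene MUC5AC had 73 reads and the membrane mucin gene MUC13 had 37. Among markers of other cells, the neuronal tubulin gene TUBB3 had 18 reads, and hepatocyte and blood markers had none. COL1A2, a fibroblast collagen gene, had 10 reads on the minus strand in a peak of 200 bases. The strand of COL1A2 was not listed, so this end is downstream only by the strand of the peak.

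Cytoskeletal and junction genes had one in 14 of 23 (60.9%, 40.8 to 77.8%). MYH9, for nonmuscle myosin, had 205 reads in a peak 1498 bases wide, MYH14, for a related myosin, 36 at a fold of 9.59, SPTAN1, for spectrin, 52 at 8.72, and TLN1, for talin, 42 at 8.40. Glycolysis and glucose transport had one in 11 of 19 (57.9%, 36.3 to 76.9%). LDHB and LDHA, which interconvert pyruvate and lactate, had 75 reads at a fold of 16.5 and 60 at 10.8, and HK1, the first enzyme of the pathway, had 23 at 10.0.

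**Figure D5:**
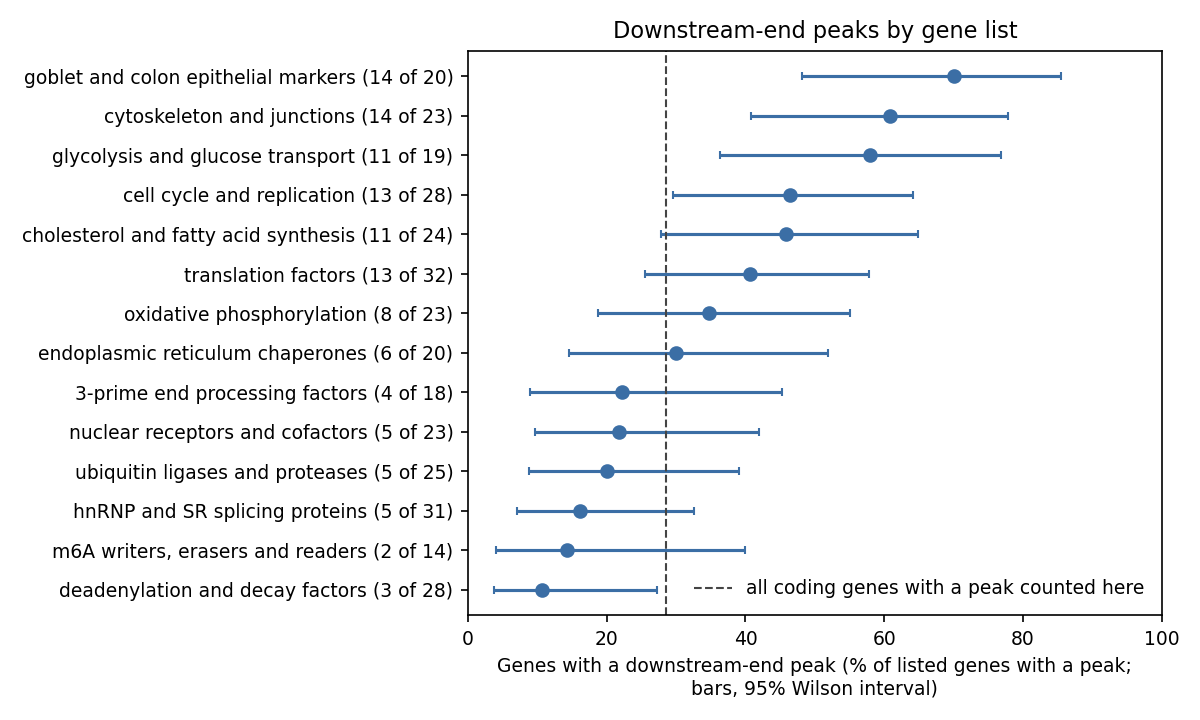
Percent of listed genes with any eligible peak that also have a downstream-end peak (x axis, with 95% Wilson intervals), for the 14 lists with at least 10 such genes; the dashed line is the share over all coding genes with an eligible peak, 28.5%. Colon epithelial markers lie highest at 14 of 20, and deadenylation and decay factors lowest at 3 of 28.

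Genes of cell division had a downstream-end peak in 13 of 28 (46.4%, 29.5 to 64.2%), among them CENPF, for a kinetochore protein, with 43 reads at a fold of 16.1, PLK1, for a mitotic kinase, with 39 at 11.0, CCNB2, for a cyclin, with 18 at 9.60, and TOP2A, for topoisomerase, with 19 at 7.63. Lipid synthesis genes had one in 11 of 24 (45.8%, 27.9 to 64.9%). Here MSMO1 of cholesterol synthesis had 19 reads at a fold of 8.70, FDFT1, for squalene synthase, 44 at 7.65, the desaturase gene FADS2 41 in a peak 1638 bases wide, and ACSL4, for a fatty acid activating enzyme, 8 reads at 6. Translation factors had one in 13 of 32 (40.6%, 25.5 to 57.7%). Besides EEF2, EIF5A and EEF1G these were led by EIF4G1, the scaffold of cap-dependent initiation, with 155 reads at a fold of 13.1, and EIF3B with 60 at 8.33.

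Oxidative phosphorylation genes had one in 8 of 23 (34.8%, 18.8 to 55.1%). Among these, peaks were centred 9 bases from the end in ATP5PO, 27 in NDUFV1, 29 in UQCRC1, 36 in NDUFB9, 69 in NDUFS3, 131 in COX4I1 and 919 in ATP5F1B, where 128 of all 2080 members lay in the last 100 bases. COX4I1, for a subunit of cytochrome oxidase, had 126 reads at a fold of 15.0, and NDUFS3, of complex I, 29 at 12.1. Endoplasmic reticulum chaperones had one in 6 of 20 (14.5 to 51.9%), led by ERP29 with 73 reads at a fold of 11.1, CALR at 10.7, and the disulfide isomerases P4HB with 234 at 9.51 and PDIA4 with 81 at 8.86.

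Several lists hold factors that act on RNA, and their shares are to be read against the same 28.5%. The list of 3-prime end processing factors had a downstream-end peak in 4 of the 18 genes with any eligible peak (22.2%, 9.00 to 45.2%). These were CPSF7 with 36 reads at a fold of 7.01, SCAF4 with 13, SYMPK with 33 and 27 in a pair of peaks, and RBBP6 with 17. Deadenylation and decay factors had one in 3 of 28 (10.7%, 3.71 to 27.2%), which were SMG5 with 43 and 42 reads, UPF1 with 39 and EDC4 with 31. Of the 14 genes for writers, erasers and readers of m6A, a methyl mark on RNA, 2 had one (14.3%, 4.01 to 39.9%), the demethylase gene ALKBH5 with 33 and 21 reads and the reader gene YTHDF1 with 14 and 11. The hnRNP and SR proteins had one in 5 of 31 (16.1%, 7.09 to 32.6%), HNRNPUL1 with 78 reads at a fold of 8.21, SRSF4 with 42, SRRM1 with 18, PTBP1 with 110 and SRRM2 with 155. Median gene length among those with an eligible peak was 82837 bases for the decay list and 15981 for the hnRNP and SR list, against 38654 overall; the part of length was not tested.

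Ubiquitin ligases and proteases had a downstream-end peak in 5 of 25 (20.0%, 8.86 to 39.1%). These were UBR4 with 29 reads at a fold of 8.98, BIRC6 with 14 at 7.65, USP10 with 14 at 4.97, HUWE1 with 23, and USP22 with a same-strand peak of 42 reads and an opposite-strand peak of 4. Nuclear receptors and cofactors had one in 5 of 23 (21.7%, 9.66 to 41.9%). Among these the orphan receptor gene NR2F6 had 54 at 6.14, PPARD had peaks of 17 and 15 reads, RXRA, for the heterodimer partner of PXR, had 24, and PPARG had 21. Of 17 PXR target genes of 5000 bases or more, 5 held an eligible peak and 2 a downstream-end peak (11.8%, 3.29 to 34.3%). Among all 16814 coding genes of that length, 6571 held an eligible peak and 11.1% a downstream-end peak, so the list did not stand out. The 2 target genes were TXNRD1, for thioredoxin reductase, with 33 reads at a fold of 6.49 and the transporter gene ABCC3 with 10 at 4.04.

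The limit of the rule cut through peaks of modest fold on both sides. The peaks just inside lay in RPUSD4, HUWE1 and ARHGEF7, at 1000 bases from the end, with 16, 23 and 18 reads and folds of 4.72, 4.69 and 4.52. Just outside, the peaks in ZDHHC5 and USP22 lay at 1001 and 1002 bases, with 24 and 59 reads and folds of 5.17 and 4.81. The peaks nearest to the end lay in ERGIC3, PSMC3 and CTNNBL1, at 1, 3 and 9 bases, with 32, 19 and 6 reads.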

How the data were processed

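Per the submitters' processing notes, cutadapt, BWA and MACS2 were used with the hg38 build; versions and settings are not given in the sources used here. The deposited list gives each peak a score, a fold (ratio of summit to background), a −log10 p and a −log10 q, and as deposited the score equals the integer part of 10 times the −log10 q in all 21031 peaks. Peak names show that strands were called apart. From these values, reads k and background b were inferred so that the fold is (k + 1)/(b + 1) and a Poisson p gives the deposited −log10 p, which succeeded in 21028 peaks and in all 2080 members. On simulated data the step recovered 100.0% of 300 known counts. Depth per library is not in the list.

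Centres were placed in the 59792 genes of the RefSeq table of GRCh38.p14, which shares coordinates with hg38. Rounding the centre up instead gave 2078 members. Gene strand came from the RefSeq promoter table. Of the 19 gene lists, all genes but 1 were found in that table on chromosomes 1 to 22 and X. Shares have 95% Wilson intervals and medians have order-statistic intervals, which treat peaks as independent. Python 3.11.15, pandas 2.3.3 and SciPy 1.17.1 were used.

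Members and lists were chosen with earlier results of these data known. Named genes are those of the 10 highest folds, the 10 deepest summits, the 6 genes with most members (ties by reads), up to 4 per list by fold, and the 3 peaks nearest to the limit on each side and to the end; other genes named were chosen after their values were seen. Some peaks that this rule picks are not reported here.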

Additional observations from a re-analysis of the deposited data

How the results depend on the processing

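Of 64 comparisons of a result with an alternative setting, 42 stayed within the error of the main value or within 1.5 times a count, 21 moved and 1 turned its direction. A limit of 500 bases gave 1243 members (7.85% of eligible peaks, 1222 genes), a median fold of 5.86 and a difference from the interior of 0.357. A limit of 2000 bases gave 3194 members (20.2%), a median fold of 5.45 and the turned difference from the interior, -0.0595; the cause was not tested. The interval of that difference reaches 0 there, and also with the summit (lower bound -0.00132), without peaks of single-read width (-0.00667) and with genes of 10000 bases or more (0). Keeping the peaks whose −log10 q was at least the median left 1010 members in 952 genes, and these had a median fold of 6.89, width of 433 bases and 36 reads, and differences of -2.63 from upstream ends and 0.319 from the interior. This setting removes shallow peaks by construction. Without peaks of single-read width the share was 14.0%, the median fold 5.75, the width 359 bases, the depth 24 reads and the difference from upstream ends -2.36. With genes of 10000 bases or more the share was 11.7%. Under all 8 settings members had a lower median fold than upstream-end peaks. Using the summit, requiring the whole peak to lie in no other gene, or keeping same-strand peaks alone moved none of the 8 results. No paired analysis was possible because the data are 1 peak list without columns for replicates, and no replicate could be left out. Depth limits single peaks: 151 members rest on under 10 reads.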

Other observations

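Beyond the annotated ends, the 78 peaks in no gene within 1000 bases past a coding gene, on the strand for which that end is downstream, had a median of 10 reads, a fold of 5.88 and a width of 202.5 bases. The 12 on the strand of the gene had folds of 2.64 to 7.14 and lay past EIF3C, RPL39, NICOL1, TRAF2, PLEKHG5, STX4, EEF1A1, DUS3L, TMEM14B, FIS1, RABGGTB and PTGES2. The deepest of these was past EEF1A1, for the elongation factor that carries transfer RNA to the ribosome, with 46 reads 357 bases beyond the end, and EEF1A1 has many near-identical pseudogenes. The 50 on the opposite strand lie before the start of the gene beside them, and they include the highest folds with a listed strand, at GPR153 (268 reads, fold 42.3), MYOCOS (210 reads, fold 40.6) and MARCHF9 (837 reads, fold 38.4), in peaks of 201 to 210 bases. These genes were chosen after their values were seen.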
